A study of Mus musculus with 2 samples.

Results

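ETS-IRF composite elements, pairs of an ETS factor site (GGAA) and an interferon regulatory factor site (GAAA) held 2 bases apart, were located in the IRF4-bound regions of a mouse B-cell line. A peak was taken as a member when the reference sequence within 50 bp of its summit held GGAA and GAAA with exactly 2 free bases between them, on either strand. By this rule 2401 of 27671 peaks were members, and their windows held 2438 elements. The peaks come from ChIP-seq (sequencing of chromatin fragments recovered with an antibody), here against IRF4, in CH12.LX, an immortalized female B-cell lymphoma line from mice of strain B10.H-2aH-4bp/Wts. All samples form 1 untreated group of 2 biological replicates, and a separate experiment that the labels name as a possible control was not used here. The line is from 1 donor animal, and the labels say nothing of separate cultures, so the spread between replicates may be technical. Expression was not measured, so the line could not be checked against marker genes, and no source used here gives read numbers, which leaves the depth unknown.

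IRF4 binds DNA only weakly by itself. In B cells it is drawn to DNA by the ETS factors PU.1 and Spi-B, which hold the GGAA core while IRF4 contacts the neighbouring GAAA, and with the AP-1 factor BATF it uses a different composite site. The enhancers of the immunoglobulin light chain genes are the classic places where the ETS-IRF element was worked out. Tandem GAAA repeats are the target of other factors of the IRF family and of IRF4 at high concentration.

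The sequences below show the element in the peaks that the results turn on, with 10 bases on each side, read 5′ to 3′ on the strand that carries GGAA. Capitals mark the ETS core GGAA and the IRF core GAAA, and the 2 lower-case letters between them are the free spacer. All are from the mm9 reference genome and not from the cell line's own reads. The first 6 are among the strongest element peaks, the next 4 lie near gene starts or near genes of B cells and antigen presentation, and the last is the weakest element peak.
Ptger3 intron (chr3:157298830-157298859, plus strand): catgtaaagaGGAAatGAAAgcccacagca
Snx29 intron (chr16:11386052-11386081, minus strand): accccaagaaGGAActGAAAgcaccgcatg
Heg1 intron (chr16:33745749-33745778, plus strand): tctgtgatgaGGAActGAAAgtgcctttgc
Grb2 intron (chr11:115554332-115554361, plus strand): aagacatgcaGGAActGAAAgttcattctc
Pax5 intron (chr4:44684063-44684092, plus strand): agaactgggaGGAActGAAAcctaaccccc
Cd200 intron (chr16:45390077-45390106, minus strand): atgagaaagtGGAAcaGAAAgtggtgtgta
Cnpy3 first kilobase (chr17:46888533-46888562, minus strand): gcgaatttgaGGAActGAAAaggtccatat
Cd79b downstream (chr11:106167289-106167318, minus strand): aaaagatacaGGAAgtGAAAccatgaggca
H2-DMb2 start (chr17:34280115-34280144, plus strand): acatgaatatGGAAgtGAAAtcctctccta
Tnfrsf13c downstream (chr15:82049441-82049470, plus strand): ctgccaggcaGGAAgtGAAAacggcctgca
Cradd intron (chr10:94760632-94760661, plus strand): gccaggcagaGGAAggGAAActgatagctg

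The light chain loci are shown with the whole 101-bp summit window, because they hold the elements best known from earlier work. The kappa window (chr6:70685667-70685767, plus strand) belongs to a peak of signal 700.7, ranked 150 in the list. It lies just past the annotated Igk segments (chr6:67505630-70676751), and it was the only element peak among 42 peaks in or within 100 kb of that locus. The lambda windows (chr16:19179455-19179555 and chr16:19027343-19027443, both minus strand) belong to peaks of signal 915.3 and 829.8, ranked 39 and 67, and were the only element peaks among 24 there. Aligned on the element, the lambda windows were equal at 93 of 100 bases, and their 30-base sequences at 28 of 30. Their spacers differ: one element has GT and the other CT. Reads that fit both copies cannot be assigned from the deposited lists, and the part this plays in the signals was not tested. No element peak was found among the 11 peaks of the heavy chain locus Igh. Over the whole list 8.68% of peaks held the element, and counts this small do not set these loci apart from each other.
Igk, beyond the locus: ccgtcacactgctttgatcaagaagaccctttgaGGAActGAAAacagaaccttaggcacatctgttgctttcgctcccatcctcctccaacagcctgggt
Igl, near Iglc2: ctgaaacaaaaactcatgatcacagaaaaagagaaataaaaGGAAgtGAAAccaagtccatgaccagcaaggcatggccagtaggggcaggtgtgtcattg
Igl, near Gm10088: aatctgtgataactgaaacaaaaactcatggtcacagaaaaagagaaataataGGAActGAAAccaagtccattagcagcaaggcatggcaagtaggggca

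Peaks with the element had higher signals than peaks without it. Signal is the value that the authors' caller gave each peak. Its scale is not stated, and the mm9 list pools both replicates, so it has no replicate error and was only used to rank and describe peaks. Element peaks ranged from 41.5 to 1251 with quartiles of 62.0 and 199, and their median was 104.5 (95% interval 99.95 to 109.9). The median was 68.3 (67.7 to 68.9) over the 25270 peaks without the element and 70.1 over all peaks. Of the element peaks, 1090 (45.4%, 43.4 to 47.4) were in the strongest quartile of the list, against 25% of all peaks. In the strongest decile stood 542 element peaks (22.6%), against 10% of all peaks. Intervals are 95% intervals (Wilson for shares, order statistics for medians) and cover counting error over peaks, which are not replicates, and no test was made between sets of peaks.

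The share of peaks with the element fell with signal across the list. It was 19.6% (18.2 to 21.1) in the strongest decile, 13.9% in the next, 7.52% in the fifth and 4.63% (3.90 to 5.47) in the weakest. Of the 100 strongest peaks, 32 held the element (32.0%, 23.7 to 41.7). Of the 1000 strongest, 229 did (22.9%). The element was therefore absent from most of the strongest peaks, and 128 element peaks stood in the weakest decile.

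**Figure D1:**
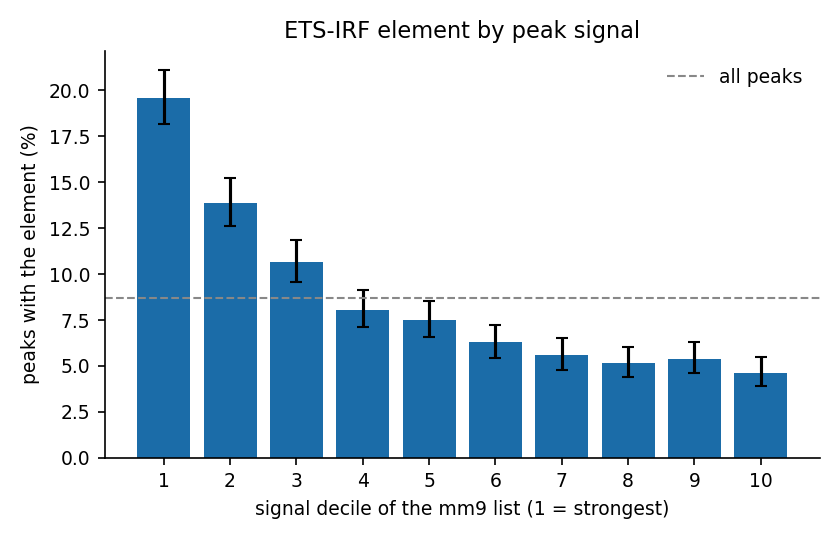
Percent of mm9 peaks whose 101-bp summit window holds the ETS-IRF element, by signal decile (1 is the strongest); bars are percents, lines their 95% Wilson intervals and the dashed line the 8.68% of all peaks. The share was highest in the strongest decile (19.6%) and was below the dashed line from the fourth decile (8.06%) onward.

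Other composite sites of IRF factors gave a reference for this strength. Peaks with a tandem IRF site (GAAA, 2 free bases and GAAA, in 1602 peaks) had a median signal of 82.8 (79.1 to 86.6), with 32.8% of them in the strongest quartile. Peaks with an AP-1-IRF site (GAAA joined to TGANTCA, or TTTC and TGANTCA with 4 free bases between, in 616 peaks) had a median of 110.1 (101.3 to 123.3), with 47.7% in the strongest quartile. The intervals of the ETS-IRF and AP-1-IRF medians overlapped, and that of the tandem site lay below both. The ETS-IRF letters read backwards (AAAG, 2 free bases and AAGG, in 255 peaks) gave 67.3 (62.4 to 73.1), close to peaks without the element. Of the element peaks, 148 also held a tandem IRF site (6.16%, against 5.75% of peaks without the element) and 16 an AP-1-IRF site. The 2238 peaks with the ETS-IRF element as their only class of the 3 had a median of 104.0.

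The 2-base spacing stood apart from every other spacing from 0 to 8. A gap of 2 occurred in 2401 peaks, and the next most frequent gaps, 3 and 4, in 583 and 515. Median signal was 74.1 (71.2 to 79.8) with a gap of 3, 75.5 with 4, 75.6 with 1 and 71.8 with 0. With gaps of 5, 6 and 7 it was 70.5, 67.4 and 69.6. A gap of 8 gave 83.5 (78.7 to 90.4) in 360 peaks. Of these, 236 had no element with a gap of 2, and their median was 77.6.

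**Figure D2:**
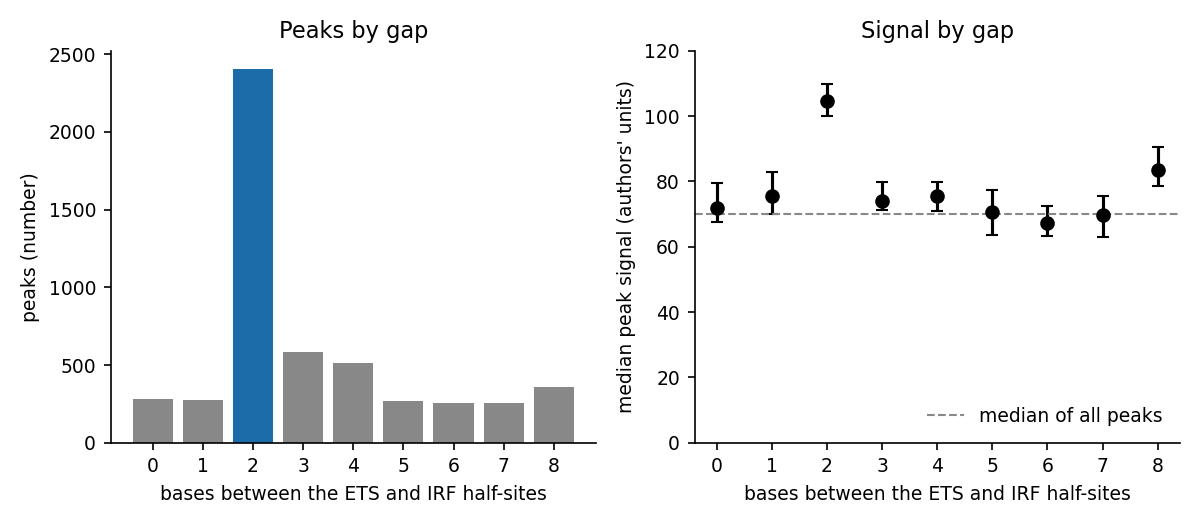
Left, number of peaks whose window holds GGAA and GAAA in the same orientation, by the bases between them; right, their median signal with 95% order-statistic intervals and the median of all peaks (dashed, 70.1). The gap of 2 stands out in number (2401) and in signal (104.5).

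The rule left the 2 spacer bases free, and their use was uneven. The form GGAAgtGAAA made up 788 elements (32.3%) and GGAActGAAA 618 (25.4%), followed by GGAAatGAAA with 283 (11.6%) and GGAAcaGAAA with 207 (8.49%). A T in the second spacer position, next to the IRF core, occurred in 71.7% of elements. Median signal varied with the spacer: it was 118.0 with GT, 119.5 with CT, 106.4 with CA, 98.5 with AT, 81.0 with GA, 72.8 with AG and 70.7 with GG. The 1406 elements with GT or CT had a median of 118.7 (111.7 to 126.8) and the other 1032 a median of 89.96 (85.2 to 97.1). The rare spacer CC, in 64 elements, had a median of 118.0 with a wide interval (87.7 to 148.8).

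The bases around the element also differed between strong and weak element peaks. Element peaks were ranked by signal among themselves. T next to the IRF core was found in 81.9% of elements in their strongest quartile, against 66.9% in the weakest. C directly after GAAA was found in 47.1% and 35.6%. G at the second base before GGAA was found in 50.2% against 41.5%, and A at the third base before it in 52.1% against 42.0%. At the base directly before GGAA the shares were 58.5% and 60% for A, 31.9% and 26.1% for G, and 2.63% and 5.25% for C. As background, ETS sites are known to have purines before the GGAA core, and IRF sites often have C after GAAA.

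Most copies of the element in the genome were not in a peak window. On chromosomes 1 to 19 and X the mm9 sequence held 342429 copies, and 2438 of them (0.712%, 0.684 to 0.741) lay in a peak window. The order of spacers changed when copies were taken as the base. CC was rare in the genome and had the highest share in peaks, 64 of 888 copies (7.21%, 5.68 to 9.10). CT followed with 618 of 12401 (4.98%), GC with 34 of 1196 (2.84%, 2.04 to 3.95) and GT with 788 of 33406 (2.36%, 2.20 to 2.53), and the intervals of GC and GT overlapped. AG was the most frequent spacer in the genome and had the lowest share, 48 of 81097 copies (0.0592%, 0.0446 to 0.0785). For GT and CT spacers combined, 558 of 4334 copies with C as the next base were in a peak window (12.9%, 11.9 to 13.9), against 3.26% with A, 1.89% with G and 1.34% with T. Copies within 1 kb of a protein-coding start were in a window more often than copies farther away, 218 of 6464 (3.37%, 2.96 to 3.84) against 2220 of 335965 (0.661%). How many copies short reads can be placed on was not tested.

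The rule takes only elements within 50 bp of a summit, so their closeness to it is set in advance. Inside that limit, 816 elements were centred 10 to 20 bp from the summit, 559 at 20 to 30 bp and 218 at 30 to 40 bp. The distance from the centre of the element to the summit had a median of 15.5 bp, and 79.4% of elements lay within 25 bp. GGAA was on the plus strand in 49.6% of elements. Seen along the element, the summit fell on the IRF side in 1411 of 2438 cases (57.9%, 55.9 to 59.8), with a median of 4.5 bp toward that side. The fullest 5-bp bin lay 20 to 25 bp on the IRF side and held 310 elements (12.7%). Signal was highest where the summit was nearest: the median was 120.2 (109.4 to 133.2) within 5 bp, 108.9 from 10 to 20 bp, 78.8 from 30 to 40 bp and 72.6 from 40 to 50 bp. At the edge of the rule, the 156 elements centred 36 to 46 bp from a summit had a median of 71.9 (range 41.6 to 617.4). The 126 just outside, at 46 to 56 bp, had 70.4 (41.7 to 630.4).

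**Figure D3:**
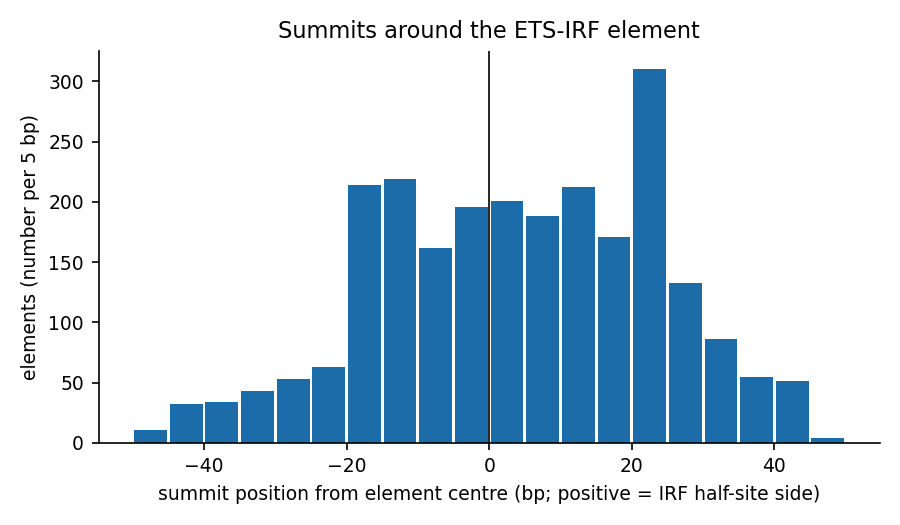
Number of elements by position of the peak summit relative to the centre of the element, in 5-bp bins; positive values lie on the IRF (GAAA) side. The fullest bin, 20 to 25 bp on the IRF side, holds 310 elements, and the bins from 10 to 20 bp on the ETS side hold 219 and 214.

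A window with 2 elements was rare. It occurred in 37 peaks, whose median signal of 122.4 (82.3 to 153.2) overlapped the 104.3 of the 2364 peaks with 1. In 29 of the 37 the elements faced the same way, their starts were 5 to 63 bp apart, and in 4 they shared bases. The strongest was in an intron of Setbp1 (signal 896.6). The next, with signal 480.1, was in an intron of Tep1, and the nearest start was that of the DNA repair gene Parp2, 16365 bp away. Its window has both elements in capitals (chr14:51443936-51444036, plus strand). Peaks in an intron of Ppp1r12b, which encodes a myosin phosphatase subunit (479.9), and upstream of Gnao1, a G protein gene (455.4), and of the cadherin gene Cdh6 (389.3) came next.
Tep1 intron: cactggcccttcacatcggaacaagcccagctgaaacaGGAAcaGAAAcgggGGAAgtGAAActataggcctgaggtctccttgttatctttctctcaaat

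Most other motifs searched were less frequent beside the element than in other peaks. An AP-1 site (TGANTCA) was in 166 element windows (6.91%, 5.97 to 8.00), against 16.9% of peaks without the element. Element peaks with and without an AP-1 site had the same median signal, 104.5. The NF-kB form (GGGA, 4 free bases and CC) was in 4.87% against 10.6%, the RUNX form AACCACA in 4.29% against 5.94%, the E-box CAGCTG in 6.54% against 8.92% and the octamer ATGCAAAT in 1.67% against 2.70%. A further ETS core, AGGAAG, lying outside the element was in 17.1% against 19.5%. A tandem IRF site outside the element was in 3.08%, against 5.75% of the peaks without the element. All motifs were searched on both strands, the element itself takes 10 of the 101 bases, and no match or lack of one says that a factor was or was not bound. Element windows were lower in GC than the others, 46.6% against 50.2% on average, and the part of this in the motif shares was not tested.

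Element peaks lay away from gene starts. Their median distance from the nearest protein-coding transcript start was 20530 bp, against 16350 bp for peaks without the element. Within 1 kb of such a start lay 218 element peaks (9.08%, 8.00 to 10.3), against 16% of all peaks. From 1 to 10 kb there were 577 (24%), from 10 to 100 kb 1244 (51.8%) and beyond 100 kb 362 (15.1%). Introns held 1102 (45.9%, against 43.2% of peaks without the element), intergenic sequence 1149 (47.9%), untranslated regions 87 (3.62%) and coding exons 45 (1.87%). GC content moved with the promoter share. Within bands of window GC the share was 5.45% of element peaks and 5.31% of others at 40 to 45% GC, 9.98% and 10.7% at 50 to 55%, and 53.6% (43.0 to 63.8) and 63.0% (61.3 to 64.6) at 60% or more. It was lower for element peaks in 5 of the 6 bands, and the intervals overlapped in each band.

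Signal at promoters separated element peaks from the rest most. Within 1 kb of a start the median was 108.5 (92.8 to 117.3) with the element and 59.4 (58.4 to 60.1) without it. From 1 to 10 kb it was 112.4 against 69.4, from 10 to 100 kb 106.6 against 71.0, and beyond 100 kb 90.9 (83.0 to 101.6) against 73.7 (71.6 to 76.5). Peaks without the element were thus weakest at gene starts, and element peaks were not. In windows of 60% GC or more, 36.9% of 84 element peaks were in the strongest quartile of the list, against 8.39% of the others. Below 40% GC the shares were 38.1% and 28.7%.

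**Figure D4:**
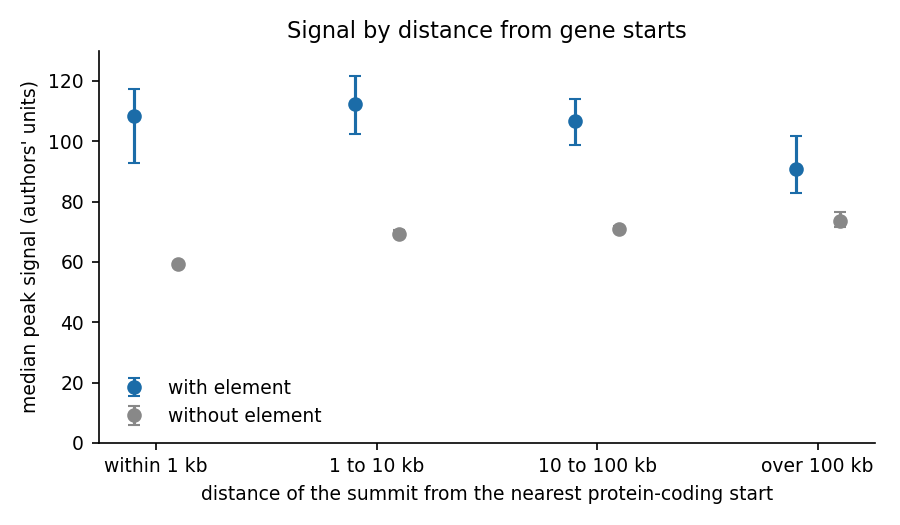
Median peak signal (authors' units) with 95% order-statistic intervals, by distance of the summit from the nearest protein-coding start, for peaks with the ETS-IRF element (blue) and without it (grey). With the element the medians run from 90.9 to 112.4, and without it from 59.4 to 73.7, lowest within 1 kb.

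By chromosome, element peaks were most numerous on chromosome 11 (205, or 1.68 per Mb), where they made up 6.72% of the peaks. Their share was highest on X, 47 of 337 peaks (13.9%, 10.7 to 18.1), and lowest on chromosome 17 (6.67%). The median signal of element peaks was 77.0 on chromosome 2 and from 87.2 to 119.6 on the others. Another peak of any kind lay within 10 kb of 1171 element peaks (48.8%), against 56.8% of the others. Another element peak lay within 10 kb of 172 element peaks (7.16%, 6.20 to 8.27), and an element peak within 10 kb of 7.65% (7.33 to 7.99) of the others.

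The 20 strongest element peaks had signals of 853.2 to 1251. Of these, 15 were in introns, 4 were intergenic and 1 was in an untranslated region, 5 were on chromosome 16 and 12 had the spacer CT. The strongest (chr3:157298691-157299008, 1251) was in an intron of Ptger3, the EP3 receptor for prostaglandin E2, 68990 bp from its start. The second (chr16:11385887-11386232, 1147) was in an intron of the sorting nexin gene Snx29. The third (chr16:33745605-33745922, 1088) was in an intron of Heg1, whose nearest start is that of the mucin gene Muc13, 48375 bp away. A peak 36365 bp upstream of Cecr5 had 1073. A peak in an intron of Grb2, the adaptor that links receptor tyrosine phosphorylation to Ras, had 1055. The peak in an intron of Pax5 (chr4:44683888-44684257), the factor that commits cells to the B lineage, had 1052 and lay 39214 bp from the nearest start. Its window also held an AP-1-IRF site.

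The rest of these 20 peaks mixed immune genes with genes known from other tissues. Cd200, whose product restrains myeloid cells, held a peak of 933.7 in an intron. Peaks of 999.1 and 884.8 stood in introns of Mybph, a muscle protein gene, and Syn3, a synapsin gene. Introns of Clgn, a chaperone gene of the testis, and St6galnac3, a sialyltransferase gene, held peaks of 887.8 and 881.5. Further peaks were in introns of AB041803 (910.7), of Donson, a replication gene (889.4), and of Pilra, an inhibitory receptor gene (853.2). A peak of 990.5 lay 27079 bp upstream of the nuclear pore gene Nup160, and 1 of 869.9 lay 5763 bp upstream of the homeobox gene Onecut2. Nearness is all these data give: no assay here ties a peak to the gene it acts on.

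At promoters, the 5 strongest element peaks were at Gbp3, an interferon-induced GTPase gene (929.3, in an untranslated region 111 bp from a start), and Cnpy3, a chaperone gene for Toll-like receptors (922.6, 583 bp). The Gbp3 window also held a tandem IRF site. The others were at Gm10088 in the lambda region (829.8), at the phosphatase gene Ppm1m (633.4, 822 bp) and at Cyth1, an exchange factor for ARF GTPases (581.2, 822 bp). At the other end of the list, the 3 weakest element peaks, near Cradd, Tapt1 and Mrpl3, had signals of 41.46, 41.49 and 41.56. The element near Tapt1, actggaggcaGGAActGAAAcagagcatca (chr5:44651584-44651613, minus strand), has the same spacer and next base C as many strong peaks, so this 11-base form occurred at both ends of the range.

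An element summit lay within 10 kb of the start of 766 of 22208 protein-coding genes, which is 3.45% of them. Any summit lay there for 7422 genes (33.4%), and 10.3% of those had an element summit. For the 766 genes the strongest element signal had a median of 112.4, and for the 7422 genes the strongest signal of any peak had a median of 72.1. Only 34 genes had 2 or more element summits within 10 kb, and none had more than 3. The 16 gene lists below held 248 symbols, all matched to the annotation.

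Genes of MHC class II presentation had the highest share of the 16 lists. Of 10 genes, all had a summit within 10 kb and 6 had an element summit, at signals from 70.5 to 422.2. Over all protein-coding genes 3.45% had an element summit there, and 10.3% of those with any summit did. H2-DMa, H2-DMb1 and H2-DMb2, which load peptide onto class II molecules, shared 1 peak of 422.2 (chr17:34279945-34280283), 141 bp upstream of the H2-DMb2 gene. Cd74, the invariant chain, had a peak of 381.1 that lay 118 bp upstream of its start. Ciita, the master regulator of class II genes, had 366.0 at a peak 7956 bp downstream of its outermost start and -78 bp from an inner one. The class II chain gene H2-Aa had 70.5. Ciita and H2-Aa were named after their values were seen. In each of the 6 genes the element peak was also the strongest peak within 10 kb. The count of 6 genes rests on 4 peaks.

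Genes of B-cell receptor signalling had 4 of 22 genes with an element summit (18.2%, against 3.45% of all genes), while 20 had a summit of any kind. Of all genes with a summit of any kind, 10.3% had an element summit. Cd79b, a signalling chain of the receptor, had a peak of 577.5, and 8776 bp lay between its start and the summit. The same peak is nearer to the start of the growth hormone gene Gh. Bank1, a B-cell scaffold protein, had a peak of 230.1 centred 23 bp upstream of its start, with the element ccttgctgggGGAAgtGAAAttgctcaggc (chr3:135989077-135989106, plus strand). Plcg2, phospholipase C gamma 2, had 73.8. Among 15 inhibitory receptors and phosphatases, Fcgr2b, the inhibitory Fc receptor, had 160.0 and Fcrla had 99.9.

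Toll-like receptor and NF-kB genes had 3 of 20 with an element summit (15%, against 3.45% of all genes). A summit of any kind lay near 18 of them, and 10.3% of all genes with such a summit had an element summit. Rel, the c-Rel subunit of NF-kB, had a peak of 651.3 at 7928 bp upstream. Tlr9, the receptor for CpG DNA, had 277.5 at 619 bp, with a stronger peak without the element of 449.6 nearby, and Nfkbie, an NF-kB inhibitor, had 94.5. Of 15 costimulation and TNF receptor genes 2 had an element summit. The BAFF receptor gene Tnfrsf13c had 768.2 (chr15:82049291-82049645), and lymphotoxin alpha, Lta, had 41.6. Of 16 cytokine and cytokine receptor genes 3 did: Il6ra, a chain of the interleukin 6 receptor, had 599.8, Il1b 64.4 and Il10 43.6. At Il10 the strongest of 8 peaks within 10 kb, at 685.2, had no element.

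Migration and adhesion genes had 5 of 18 with an element summit (27.8%, against 3.45% of all genes), most of them weak. A summit of any kind lay near 13 of the 18, and 10.3% of all genes with such a summit had an element summit. The chemokine receptor gene Cxcr4 had 197.4 with the element cggaaagtgaGGAAgtGAAActtgggggcg (chr1:130487510-130487539, minus strand). The chemokine genes Ccl3 and Ccl22 had 66.0 and 59.5, the receptor genes Ccr6 and S1pr1 65 and 44.4, S1pr1 being named after its value was seen. Plasma cell genes had 2 of 12, with Tnfrsf17, which encodes BCMA, at 55.3 and Xbp1, a factor of the secretory program, at 49.2. Both had a stronger peak without the element within 10 kb, at 71.3 and 308.2. Of 11 genes of class switching and repair, Apex1, an endonuclease gene of base excision repair, had 155.7 from a peak nearer to Tmem55b.

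The factors that bind the element, and B-cell regulators, were counted both near the start and over the whole gene, a span that includes the first. Of 17 ETS genes 1 had an element summit within 10 kb of its start (5.88%, against 3.45% of all genes), Etv3 with 113.6. Of the 17, 10 had a summit of any kind there, and 10.3% of all genes with such a summit had an element summit. The PU.1 gene, listed as Sfpi1, had no element summit there. Counting the gene from end to end with 10 kb on each side, 5 of the 17 had an element summit, against 8.02% of all protein-coding genes. Only 47.0% of all genes had a summit of any kind in that span. The 5 run from 14.8 kb for Etv3 to 234.5 kb for Etv6, and the part of gene length and peak number in the count was not tested. Ets1 had the strongest, in an intron (508.3), with ttgggtgatgGGAActGAAActacatcttc (chr9:32460015-32460044, plus strand). Fli1 (190.5), Elk1 (180.8) and Etv6 (116.5) had weaker ones. Of 9 IRF genes 2 had an element summit within 10 kb of the start, Irf5 with 323.2 and Irf2 with 179.3 at 251 bp upstream. The Irf2 window also held a tandem IRF site, which overlaps the element.

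Of 18 genes of B-cell transcription factors 15 had a summit within 10 kb of the start. An element summit lay there for 1 (5.56%, against 3.45% of all genes), Runx3 with 217.5. Of all genes with a summit there, 10.3% had an element summit, and a count of 1 carries little information. The start in these lists is the outermost of the gene, and inner starts were not counted: the strongest Zbtb20 element lies 119 bp from the start of an inner transcript. Counted over the gene with 10 kb on each side, 11 of the 18 had an element summit, against 8.02% of all protein-coding genes. The strongest of each was in an intron. These genes are long, from 57.3 kb for Runx3 to 766.7 kb for Zbtb20, and the part of gene length in the count was not tested. After Pax5 (1052, in a window that also held an AP-1-IRF site), the strongest were in Bach2, a repressor that delays plasma cell differentiation (736.4), and Ebf1, an early B-cell factor (663.4). Zbtb20 had 4 element summits, the strongest at 334.9, among 47 summits, while 8.68% of all peaks held the element. Ikzf3 had 280.8, Foxo1 166.5, Ikzf1 135.9, Bcl11a 125.0, Mef2c 79.5 and Foxp1 46.6. Except for Pax5, Runx3 and Etv3, the genes named here for elements inside the gene were chosen after their values were seen. The elements of the 3 strongest are set out to compare their flanks.
Pax5: agaactgggaGGAActGAAAcctaaccccc
Bach2 (chr4:32445745-32445774, minus strand): aaaaaaaaaaGGAAgtGAAAaatgagagta
Ebf1 (chr11:44578756-44578785, minus strand): tcgggtttgaGGAActGAAAatcttgtgtg

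Lists of other lineages served as a reference. Of 15 T-lineage genes Cd4 had an element summit (59.5), and of 15 myeloid genes Cd68, a lysosomal glycoprotein gene, had 167.1 at 20 bp and Csf3r, the G-CSF receptor gene, 82.7. None of 17 neuron genes and none of 18 cytosolic ribosomal protein genes had 1, while 2 and 6 of them had a summit of any kind. With lists of 9 to 22 genes and 3.45% of all genes called, a count of 1 or 2 carries little information.

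The genes with most element summits, counted from 10 kb before to 10 kb after the gene, were led by Dnajc7, a co-chaperone gene of 37.4 kb, with 6 of its 15 summits. The myelin enzyme gene Cnp, which overlaps it, had 5 of 11 summits, most of them therefore the same peaks. Elmo1, an activator of Rac, had 5 of 16 over 515.9 kb. Arfip1 and Fgfr2 also had 5, but the annotation used gives them spans of 1391 kb and 3009 kb. The other genes taken by the rule had 4: the chromatin remodeller gene Chd9 (of 13), the phosphatase genes Inpp4b (of 21) and Ptprj (of 12), the potassium channel gene Kcnq5 (of 9) and Gm20388 (of 96 over 4435 kb). Among all peaks 8.68% held the element, and in these genes from 4.17% of summits (Gm20388) to 45.5% (Cnp) did. The genes were picked for their counts, and the part of span and peak number in them was not tested.

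Some element peaks shared their surroundings. Where at least 16 of the 20 flanking bases were equal, elements were grouped, which gave 48 families with 137 peaks (5.71% of element peaks), 37 of them families of 2. The largest held 18 peaks, and its median signal over genome copies in peaks was 152.3. In the mm9 sequence 42 copies matched its consensus at 18 or more of the 22 free bases, on 18 chromosomes and none of them within 1 kb of a gene start. Of these, 16 lay in a peak window (38.1%, 25 to 53.2), against 0.712% of all copies of the element. The consensus of each family counted was built from elements already in peaks. Its share in peaks is therefore raised by that choice, and the 2 shares are not a like comparison. Signals in the family ran from 42.9 to 884.8, so near-equal 30-base sequences were found at both strong and weak peaks, as the following members show.
Consensus of the largest family: accagaagagGGAActGAAAcattcttggt
Syn3, 884.8: accagaagagGGAActGAAAccttcttggt
St6galnac3, 881.5: agtagaagagGGAActGAAAcatttttggt
Meis1, 817.3: accagaagaaGGAActGAAAcattcttggt
Pcdh17, 146.5: accagaagagGGAActGAAAcaatcttggt
Ndufa9, 60.8: aacagaagagGGAActGAAAcattcttgct
Vmn1r223, 42.9: acctgaagacGGAActGAAAcatttttggt

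The other large families were in peaks less often. The next, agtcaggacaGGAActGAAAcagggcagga, had 6 of 93 copies in a window (6.45%, 2.99 to 13.4). The family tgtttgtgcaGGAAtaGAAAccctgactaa had 5 of 15540 copies (0.0322%), the lowest share among the 5 families counted. The 2 remaining had 4 of 324 and 5 of 130. Copies this alike may be repeats, but no repeat annotation was used here, and the placing of short reads on them was not tested.

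Replicates were compared through the mm10 lists, which give each replicate its own signal. These replicate lists hold peaks and background, as input to the authors' reproducibility threshold, so a match in them may be a background entry. No coordinates were converted. A peak of the mm9 list and one of an mm10 list were taken as the same where their summits lay at the same distance, within 50 bp, from the start of the same gene, for the 5796 genes whose span was equal in both annotations. Of 967 element peaks near such a gene, 856 were found in both replicates (88.5%, 86.4 to 90.4), against 70% of 11116 peaks without the element. This share depended on the tolerance: for element peaks it was 54.9% within 20 bp and 96.2% within 100 bp, and for the others 35.7% and 87.1%. Among peaks of the strongest quartile the shares at 50 bp were 96.0% and 93.4%. The authors' optimal list, which was thresholded over both replicates, had a match at 50 bp for 898 of the 967 element peaks (92.9%). It had one for 80.9% of the others.

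Replicate 2 gave the higher signal in 748 of the 856 element peaks. The median log2 ratio of replicate 2 to replicate 1 was 0.42 (0.39 to 0.45) with an SD over peaks of 0.47. It was 0.57 with an SD of 0.59 at peaks without the element, so the shift toward replicate 2 was shared by both sets. Median signals of the element peaks were 36.5 and 51.3. Across these peaks the rank correlation of the replicates was 0.906, and 0.774 without the element. The points share caller, libraries and genome and are not independent.

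**Figure D5:**
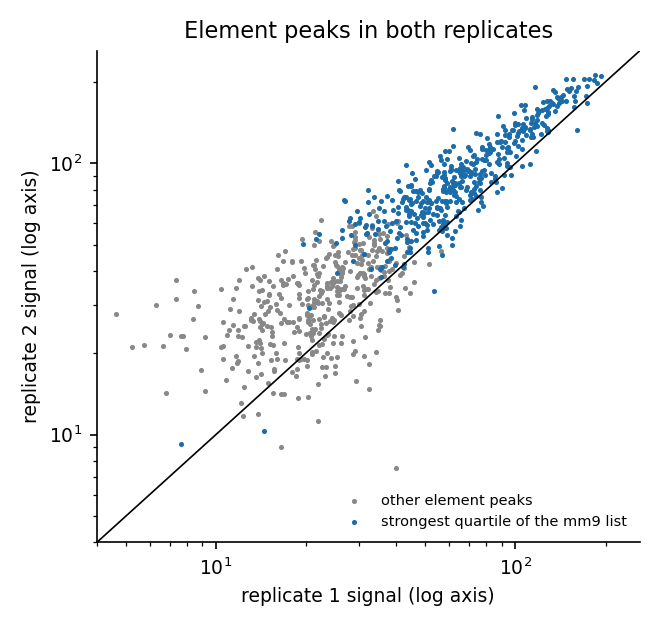
Signal of each of the 856 matched element peaks in replicate 1 and replicate 2, both on log axes, with the line of equal signal; blue points are peaks in the strongest quartile of the mm9 list. Most points (748) lie above the line, and most blue points lie toward the upper right, with medians of 62.9 and 85.3, while a few are low in both replicates (the lowest at 7.61 and 9.24).

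Matched element peaks of the strongest quartile had medians of 62.9 in replicate 1 and 85.3 in replicate 2, but some were low in both. The lowest were near Nid1 (7.61 and 9.24) and Smok2a (14.4 and 10.3), whose mm9 signals were 153 and 302. Both belong to families of like flanks with 2 members, and both were named after their values were seen. The Heg1 intron peak had 193.1 in replicate 1 and 209.5 in replicate 2, and the Grb2 intron peak 183.7 and 211.2. Mybph had 183.1 and 203.0, Cnpy3 187.8 and 197.3, and Pilra 162.0 and 190.4. Replicate 2 was the higher in each of these 5. Among B-cell genes, Tnfrsf13c had 159.7 and 185.5, the peak near Cd79b 120 and 155.3, and the H2-DMb2 peak 97.8 and 133.0. Cd74 had 117.5 and 111.3 and Cxcr4 58.7 and 57.7, with replicate 1 slightly higher. Irf2 had 52.1 and 98.3, the peak counted for Apex1 42.9 and 98.2, and Fcrla 28.5 and 58.7, each higher in replicate 2. Runx3 had 70.9 and 91.5, Tlr9 74.5 and 103.6, and the weak peaks at Il10 and Xbp1 had 21.0 and 20.2, and 14.2 and 25.5. With 1 value per replicate and no further repeat, these differences have no error of their own.

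Promoter sequences of the newer build gave a second look that did not need matching. RefSeq promoters of GRCm38.p6 span 250 bases before to 50 after a gene start, and 892 of 32585 (2.74%) hold the element. A summit of the authors' optimal list, which was thresholded by the irreproducible discovery rate (IDR) over both replicates, lay in 135 of these 892 promoters (15.1%). It lay in 14.6% of all promoters. In 83 promoters the summit was within 50 bp of the element, at 74 summits with a median optimal signal of 55.7. Both replicates had 58 of these summits, and replicate 2 was higher in 54.

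The strongest of these promoter summits was at Dapp1, an adaptor of B-cell receptor signalling, with 301.3 in the optimal list and 130.2 and 169.5 in replicates 1 and 2. Its element lies about 9.5 bp before the gene start and reads tggctagcaaGGAAgtGAAActtggttgct (GRCm38.p6). Ddit4l had 224.5, Rinl 189.7 and Il4, a cytokine gene, 188.2 (88.3 and 103.6 in the replicates). Bank1 had 152.8 (65.3 and 84.9), Slfn2 148.1 and Fcgr2b 122.7 (59.2 and 66.6). Where a gene was reached by both routes, 20 of 20 had the same optimal signal. Both routes read the same list, and only peaks within 1 kb of a start that already had a match were compared. Failed matches and matches farther from a start were not checked this way. At Fcgr2b, matching through a gene start found no replicate 1 entry within 50 bp, where the promoter route gave 59.2. These promoter genes were picked from among the 15 strongest such promoters after the values were seen, and others of that rank are not named.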

How the data were processed

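IRF4 ChIP-seq peak lists of 1 group (2 biological replicates of CH12.LX) were analysed. The authors deposited a signal value for each peak, from a caller and on a scale not given in the sources used here, as are the aligner and read numbers. Per the deposited descriptions, the mm9 list came from the pooled mm9 alignments and no control is listed as its input. The replicate lists, of peaks and background as input for IDR, were made on mm10 from each replicate and 1 further file. The optimal list was thresholded from these by IDR. Depth is unknown, so precision is given as 95% intervals over peaks.

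Windows of 50 bp on each side of the mm9 summits were read from the mm9 (NCBIM37) genome and searched for literal motifs on both strands. Gene starts, introns and exons came from GENCODE vM1. The quartile and decile were of the whole mm9 list. Motif and interval code was tested on simulated data. No test was made between sets of peaks, since the pooled list has no replicate value and peaks are not replicates. Replicates were matched as the text describes, through RefSeq genes of GRCm38.p6, and the promoter sequences are RefSeq's (GRCm38.p6). All 248 listed symbols matched, 5 through older symbols.

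The rule, members and gene lists were chosen with earlier results of these data known. Genes named are those of the 20 strongest element peaks, the 10 genes with most element summits (ties at 4 broken by name), up to 4 members of each list, the 5 strongest promoter peaks, the 5 strongest peaks with 2 elements and the 3 weakest. Others are said to be chosen after their values were seen. Alternatives changed the window, the list, the promoter and gene distances, the chromosomes and the match tolerance. The conservative and pooled mm10 lists were not used. Some genes under the rule are left out of the text, and no sequence is printed from chromosome 18. Python 3.11.15 was used with numpy 2.4.6, pandas 2.3.3, scipy 1.17.1, pysam 0.24.0 and matplotlib 3.10.9.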

Additional observations from a re-analysis of the deposited data

How the results depend on the processing

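Of the values recomputed under alternatives, 15 stayed within their interval or replicate spread and 22 moved. With a window of 25 bp on each side of the summit the element was in 5.87% of peaks, their median signal was 111.7, 48.0% were in the strongest quartile, 2.25% of genes had an element summit, 2.59% of element peaks had an AP-1 site (10.95% of the others) and 62.0% of elements had a GT or CT spacer. With 100 bp these were 10.2%, 97.9, 42.4%, 4.12%, 12.3% (21.0% of the others) and 51.5%. Among peaks above the median signal of the list 11.9% of peaks held the element, with a median of 153.1, 2.46% of genes had a summit with it and 61.2% of spacers were GT or CT. Without chromosomes 11 and 16 the element was in 9.03% of peaks and near 3.20% of genes. Promoter distances of 500 and 2500 bp gave 5.71% and 14.4% of element peaks, and gene distances of 5 and 25 kb gave 2.05% and 7.16% of genes. The intron share and the replicate ratio did not move. The direction against peaks without the element held for signal and for the AP-1 share with all 3 windows. No paired analysis was possible because the samples form 1 group and the mm9 list pools both replicates, which also kept a replicate from being left out. Depth is unknown, and a literal motif misses variants of the element.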
